A study of Mus musculus with 4 samples.

Results

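The genes described are 10 alcohol and aldehyde dehydrogenases of mouse liver, namely Adh1, Adh4, Adh5, Adh7, Aldh1a1, Aldh1a7, Aldh2, Aldh3a2, Aldh8a1 and Aldh1l1. They were taken by symbol from a table of 21827 gene entries, and all 10 were found, each with 1 entry. The comparison is of untreated 8-week-old male CD-1 mice with untreated 8-week-old female CD-1 mice, an outbred stock for which the labels list no engineered allele. Liver RNA of 12 mice per sex was pooled by 6 livers, which gave 2 pools of each sex, and poly-A-enriched RNA of the 4 pools was sequenced with a strand-specific protocol. The table gives 1 level per gene and sex as log2 RPKM (log2 of reads scaled to gene length and library size) and none per pool, so no SD between pools can be given, and the mice of a pool cannot be separated. The question is whether male liver differs from female liver in the expression of these enzymes.

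Alcohol dehydrogenases oxidize alcohols to aldehydes with NAD as the acceptor, and aldehyde dehydrogenases oxidize the aldehydes on to acids. In the liver the chain that starts with ethanol runs through cytosolic class I alcohol dehydrogenase to acetaldehyde and then, mainly in mitochondria, to acetate. Other members of the same families handle retinol and retinal, formaldehyde, fatty aldehydes and intermediates of tryptophan and folate metabolism.

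Adh1 was higher in female liver, Adh4 and Aldh1a1 were higher in male liver, and the other 7 genes did not pass the test. Calls rest on the authors' adjusted p, with 0.05 as the limit, and the sign of the authors' normalized log2 ratio (male over female) gives the direction. By this rule 2 of the 10 genes were male-higher and 1 was female-higher. Of the 21827 entries, 6590 stand at the lowest level of the scale (the floor) in both sexes, all with a ratio of 1 and the same adjusted p of 0.026. These carry no direction and were set aside, as were 1460 entries at the floor in 1 sex and 15 without a level, likewise with a ratio of 1 (80 and 14 of them had an adjusted p under 0.05). Over the remaining 13762 genes (the compared genes), 17.4% were called, 7.21% as male-higher and 10.2% as female-higher. With 10 genes, a count of 3 is not set apart from that background here. At the authors' stricter limit of 0.01, which 10.2% of compared genes passed, Adh1 and Adh4 were called. Adh1 was the single gene of the 10 called at 0.05 with a difference of at least 1.5-fold, as were 13.5% of compared genes. Of the compared genes that reached a log2 RPKM of 1 in a sex, 17.2% were called at 0.05. The median normalized log2 ratio of male over female was -0.0125 over the 10 genes and -0.024 over all compared genes. Since there are no values per pool, the size of a difference that the authors' test could call was read from the table. Among 821 genes at or above a log2 RPKM of 6 in both sexes, to which 8 of the 10 genes belong, the smallest called difference was 1.29-fold and the largest one not called was 1.30-fold. In this class 20.2% of genes were called, 10.7% as male-higher and 9.5% as female-higher. The 5 genes of this class that were not called differed by at most 1.15-fold. This is less than the smallest called difference, which adds little, because calls in this class nearly follow the fold. Aldh3a2, at 1.20-fold, and Adh7 lie below that level in at least 1 sex and were not called either.

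**Figure D1:**
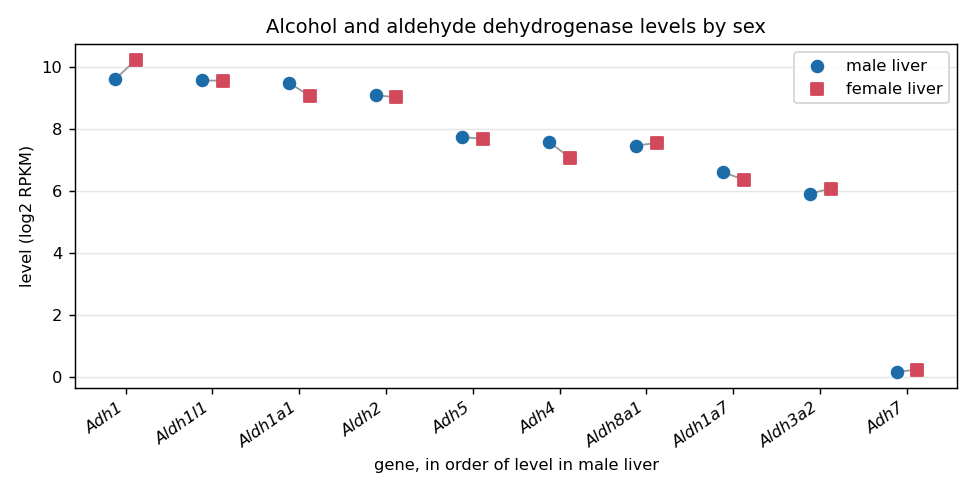
Level (log2 RPKM, vertical axis) of each of the 10 dehydrogenase genes in male liver (blue circles) and female liver (red squares), in order of level in male liver. Each point is the authors' single value for a sex over both pools, so there are no error bars. Adh1 stands at 9.59 in male and 10.23 in female liver, and Adh7 near 0 in both.

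All of these genes but Adh7 were abundant. In male liver Adh1 led with 772 RPKM, followed by Aldh1l1 (751 RPKM), Aldh1a1 (712 RPKM) and Aldh2 (539 RPKM). The Aldh1l1 entry covers 3.27 kb of a gene of 48.4 kb, so its rank may not be that of the whole transcript. A second tier in male liver held Adh5, Adh4 and Aldh8a1 between 213 and 175 RPKM, and Aldh1a7 and Aldh3a2 lay at 96.9 and 59.7 RPKM. The order in female liver was the same except that Aldh8a1 stood above Adh4. Because no spread between pools is available, neighbours in this order, such as Adh1 and Aldh1l1 in male liver, cannot be said to differ. Adh1 exceeded 99.5% of the compared genes in male liver and 99.7% in female liver, whereas Adh7 exceeded 24.5% and 23.8%.

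Adh1 encodes the class I alcohol dehydrogenase, the main ethanol-oxidizing enzyme of mouse liver, which also oxidizes retinol (chromosome 3, 137940609 to 137953655, plus strand, mm9). Its level was 772 RPKM in male liver and 1198 RPKM in female liver. The male value lay below the female value, and the female excess was 1.59-fold with an adjusted p of 0.000373 in the authors' deposited table. Reads implied by these levels and the transcript length numbered 12953 in male and 26303 in female liver, and counting error alone allows a female excess between 1.52-fold and 1.58-fold (exact 95% interval of the ratio of reads). Implied depth scales that interval, in place of the authors' normalization, and the 1.59-fold of the table lies just outside it. For Aldh2 the table's male over female ratio of 0.995 also lies outside its interval (1.02 to 1.06). For Aldh3a2 the female excess of 1.20-fold lies outside 1.06-fold to 1.18-fold. The ratios of Adh4, Adh5, Aldh1a1 and Aldh1a7 lie inside their intervals. The reason for these gaps was not tested. Each interval covers counting error only. Differences between mice and pools are not part of it. In RNA of whole liver, fewer cells that express a gene and less RNA per cell cannot be told apart.

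Adh4 encodes the class II enzyme, which acts on longer and aromatic alcohols and on retinol (chromosome 3, 138078461 to 138093856, plus strand, mm9). It had 190 RPKM in male liver, above 133 RPKM in female liver. The male excess was 1.45-fold with an adjusted p of 0.00505 in the authors' deposited table, and counting alone allows 1.36-fold to 1.51-fold. Adh1 and Adh4 thus differed between the sexes in opposite directions. Within a sex, the RPKM of Adh1 was 4.07 times that of Adh4 in male liver and 9.03 times that of Adh4 in female liver. Their normalized log2 ratios of male over female lay 1.20 apart, and this gap itself was not tested.

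Adh5 encodes the class III enzyme, the glutathione-dependent formaldehyde dehydrogenase that also reduces S-nitrosoglutathione (chromosome 3, 138106128 to 138118463, plus strand, mm9). It stood at 213 RPKM in male liver and 203 RPKM in female liver, a ratio of 1.04 with an adjusted p of 0.742 in the authors' deposited table. Counting alone allows 1.01-fold to 1.09-fold on the scale of implied depth. Adh7 encodes the class IV enzyme, a retinol dehydrogenase known from stomach and other epithelia (chromosome 3, 137880787 to 137896346, plus strand, mm9). Its level was 1.11 RPKM in male liver and 1.17 RPKM in female liver, with an adjusted p of 1 in the authors' deposited table. That corresponds to 12.5 implied reads per kilobase in male and 17.2 in female liver, which leaves its ratio the least precise of the 10. It was the single gene of the 10 below the authors' limit for liver expression (log2 RPKM of 1 in either sex).

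Adh1 supplied 65.7% of the summed RPKM of the 4 alcohol dehydrogenases in male liver and 78.1% in female liver. Adh4 supplied 16.1% in male and 8.64% in female liver, and Adh5 18.1% in male and 13.2% in female liver. The sum over the 4 genes was 1176 RPKM in male liver and 1534 RPKM in female liver, a ratio of 0.767. These sums are descriptions with no test.

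All 4 alcohol dehydrogenase genes lie in a single cluster on chromosome 3, in the same orientation and over 237.7 kb, with Adh7 first and Adh5 last. The table has 7 entries between these ends, and the other 3 are Adh6a, Adh6b and Adh6-ps1. Adh6a and Adh6b lay at the floor in both sexes, with the ratio of 1 and adjusted p of 0.026 that every such entry has in the authors' deposited table, and they were not compared. Adh6-ps1, a pseudogene between Adh6b and Adh4 that was singled out after its values were seen, had 17.3 RPKM in male liver and 2.34 RPKM in female liver. It was 7.96-fold higher in male liver (adjusted p = 5.95e-35 in the authors' deposited table), and the implied reads were 544 in male and 96 in female liver, which counting alone places between 5.96-fold and 9.32-fold. Along the cluster the compared genes therefore ran from Adh7 (not called) and the female-higher Adh1 to the male-higher Adh6-ps1 and Adh4 and then Adh5 (not called). The start of Adh4 lies 27.2 kb beyond the end of Adh6-ps1. The transcripts of Adh4 and Adh6-ps1 align over 142 columns at 81.0% identity with a longest exact run of 30 bases, and the sources used here do not say how reads matching both were assigned. Adh1 and Adh4 transcripts are 66.2% identical over 995 aligned columns, and their longest exact run is 12 bases.

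**Figure D2:**
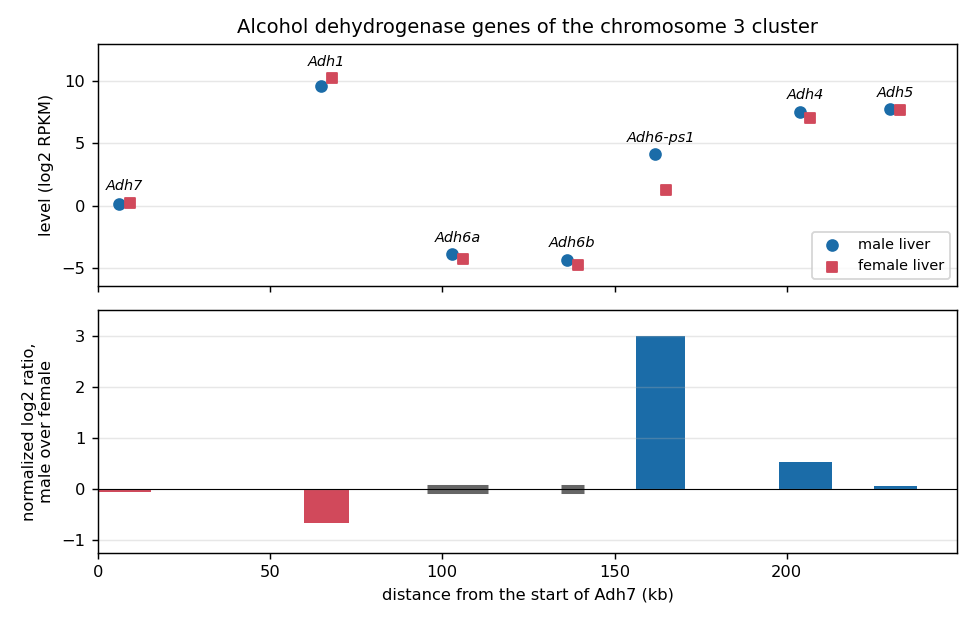
Levels (log2 RPKM, upper panel, blue circles for male liver and red squares for female liver) and the authors' normalized log2 ratio, male over female (lower panel, bars as wide as each gene) along the chromosome 3 cluster, against distance from the start of Adh7 in kb. Grey blocks mark Adh6a and Adh6b, which lie at the floor with a ratio of 1 and were not compared. The bar of Adh1 points down (-0.67), and those of Adh6-ps1 (2.99) and Adh4 (0.53) point up.

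The sequences around the starts of Adh1 and Adh4 are shown because these genes of the same cluster differed between the sexes in opposite directions. Each window holds 250 bases before and 50 after the start in the RefSeq annotation of GRCm38.p6, on the plus strand, at chr3:138277335-138277634 for Adh1 and chr3:138415247-138415546 for Adh4. Both strands were searched for a STAT5-type site spelled TTCNNNGAA, a C/EBP-type site spelled TTGCNNAA and an octamer spelled ATGCAAAT. Shorter motifs searched were the TATA box as TATAAA, the CCAAT box by its name, an HNF1-type site as GTTAAT and an E-box as CACGTG. The octamer and the E-box were added after these windows had been read. Capitals mark every match, and positions are those of a match's leftmost base.
Adh1: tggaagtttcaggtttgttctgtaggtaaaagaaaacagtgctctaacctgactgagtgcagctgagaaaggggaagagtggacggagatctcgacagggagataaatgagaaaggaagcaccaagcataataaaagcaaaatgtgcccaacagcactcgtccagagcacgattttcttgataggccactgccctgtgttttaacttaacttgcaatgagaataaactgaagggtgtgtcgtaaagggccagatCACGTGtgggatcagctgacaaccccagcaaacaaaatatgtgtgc
Adh4: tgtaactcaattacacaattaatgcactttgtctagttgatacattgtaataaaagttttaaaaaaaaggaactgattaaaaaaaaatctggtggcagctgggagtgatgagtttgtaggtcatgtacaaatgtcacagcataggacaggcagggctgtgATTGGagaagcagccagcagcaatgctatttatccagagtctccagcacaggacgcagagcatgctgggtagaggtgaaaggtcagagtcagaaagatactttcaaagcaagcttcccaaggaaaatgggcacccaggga
The Adh1 window holds an E-box that begins at base 5 counted from the start, and 7.17% of 32544 windows of this length hold one on either strand. The Adh4 window holds a CCAAT box on the minus strand 90 bases before the start, a motif found in 37.4% of windows. None of the other motifs searched matched in these windows, which says only that their letters are not there.

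Aldh1a1, which encodes the cytosolic retinal dehydrogenase that also oxidizes acetaldehyde, was the third gene called (chromosome 19, 20676472 to 20717952, plus strand, mm9). It had 712 RPKM in male liver and 534 RPKM in female liver, a male excess of 1.31-fold with an adjusted p of 0.0358 in the authors' deposited table. This passes 0.05 and misses the authors' own limit of 0.01 for a sex-biased gene. Its log2 ratio of 0.39 lies close to the largest one not called among abundant genes (0.38). Counting alone allows 1.30-fold to 1.36-fold.

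Aldh1a7 encodes a close relative of the Aldh1a1 enzyme (chromosome 19, 20767443 to 20802046, minus strand, mm9). Its level was 96.9 RPKM in male liver and 81.6 RPKM in female liver, a ratio of 1.15 with an adjusted p of 0.297 in the authors' deposited table. The RPKM of Aldh1a1 was 7.35 times that of Aldh1a7 in male liver and 6.54 times in female liver. The genes lie 49.5 kb apart in opposite orientation, with no other entry of the table between them. Their transcripts are 89.0% identical over 2073 aligned columns, with an exact run of 100 bases, so reads that match both may have been split, and the ratio of Aldh1a7 in particular is uncertain.

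The windows around the starts of Aldh1a1 and Aldh1a7 are shown because they are near copies of each other over much of their length. They lie at chr19:20601718-20602017 on the plus strand for Aldh1a1 and at chr19:20727507-20727806 on the minus strand for Aldh1a7 (GRCm38.p6, RefSeq). Of the 2 windows RefSeq gives for Aldh1a1, the one shown fits the span of the table's entry. Capitals mark the longest run that both windows share.
Aldh1a1: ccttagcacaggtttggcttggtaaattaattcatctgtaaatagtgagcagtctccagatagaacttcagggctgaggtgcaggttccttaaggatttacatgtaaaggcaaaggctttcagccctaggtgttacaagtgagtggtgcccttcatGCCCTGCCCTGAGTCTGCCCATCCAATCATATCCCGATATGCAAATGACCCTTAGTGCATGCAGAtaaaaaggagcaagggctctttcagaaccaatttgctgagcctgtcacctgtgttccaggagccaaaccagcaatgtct
Aldh1a7: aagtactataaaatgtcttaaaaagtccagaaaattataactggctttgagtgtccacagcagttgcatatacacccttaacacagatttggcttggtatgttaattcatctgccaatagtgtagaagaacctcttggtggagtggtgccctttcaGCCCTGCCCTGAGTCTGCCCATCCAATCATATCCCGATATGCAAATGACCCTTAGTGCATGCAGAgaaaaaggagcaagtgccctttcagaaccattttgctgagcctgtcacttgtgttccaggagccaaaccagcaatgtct
The shared run is 65 bases long and reaches from 94 to 30 bases before the start. Over 224 aligned base pairs, gaps left out, the windows are 95.1% identical. Each window has 300 bases, and those outside these pairs have no counterpart in the alignment. The run contains a CCAAT box 72 bases and an octamer 56 bases before the start in each gene. Outside the run, the Aldh1a1 window holds a CCAAT box 2 bases before the start, and the Aldh1a7 window holds a CCAAT box (137 bases before), an HNF1-type site (150 bases before) and a TATA box (244 bases before). The octamer was added to the search after windows had been read, so its count is a description with no test. It occurs in 1.75% of the 32544 windows and in 3 of the 11 windows held by the 9 members that have any. Its matches in Aldh1a1 and Aldh1a7 lie in the shared run and are not independent. The third is in Aldh8a1 (chr10:21377050-21377349, plus strand), where it lies 58 bases before the start. The Aldh8a1 window also holds a STAT5-type match 155 bases before the start, the single one in the windows of these members, and 8.33% of all windows hold one. Both matches are in capitals here.
Aldh8a1: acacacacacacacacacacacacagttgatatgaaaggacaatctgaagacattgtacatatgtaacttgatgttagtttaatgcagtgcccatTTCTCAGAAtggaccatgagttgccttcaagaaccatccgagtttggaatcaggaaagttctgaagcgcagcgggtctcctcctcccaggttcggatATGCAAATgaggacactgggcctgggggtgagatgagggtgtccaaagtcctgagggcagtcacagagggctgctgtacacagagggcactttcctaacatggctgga
These 3 genes did not share a call between the sexes, Aldh1a1 being male-higher and the other two not called.

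Aldh2 encodes the mitochondrial enzyme that clears most acetaldehyde formed from ethanol (chromosome 5, 122017696 to 122043833, minus strand, mm9). It stood at 539 RPKM in male liver and 517 RPKM in female liver, a ratio of 0.995 with an adjusted p of 0.97 in the authors' deposited table. Its plain difference of log2 RPKM, male minus female, was 0.06 and its normalized log2 ratio -0.01, so the sign depends on which measure is used. In RPKM, Aldh1a1 was 1.32 times Aldh2 in male liver and 1.03 times Aldh2 in female liver.

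Aldh3a2 encodes the fatty aldehyde dehydrogenase of the endoplasmic reticulum and peroxisomes, whose loss in humans causes Sjögren-Larsson syndrome (chromosome 11, 61058257 to 61080629, minus strand, mm9). It had 59.7 RPKM in male liver and 66.8 RPKM in female liver, with a normalized log2 ratio of -0.27 and an adjusted p of 0.158 in the authors' deposited table. This was the widest difference among the 7 genes not called. Aldh8a1 encodes an enzyme of the kynurenine pathway that oxidizes aminomuconate semialdehyde (chromosome 10, 21097097 to 21116384, plus strand, mm9). It had 175 RPKM in male liver and 186 RPKM in female liver, a ratio of 0.92 with an adjusted p of 0.521 in the authors' deposited table.

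Aldh1l1 encodes the cytosolic 10-formyltetrahydrofolate dehydrogenase, which returns folate-bound formyl groups to carbon dioxide (chromosome 6, 90546930 to 90550197, plus strand, mm9). It stood at 751 RPKM in male liver and 748 RPKM in female liver, a ratio of 0.988 with an adjusted p of 0.924 in the authors' deposited table. The entry spans 3.27 kb, against 48.4 kb for the gene in RefSeq on GRCm38.p6, so the level is that of a short stretch of the gene and may not equal that of the whole transcript. For Adh7 and Aldh8a1 the entry, like that of Aldh1l1, rests on a cDNA record outside the RefSeq transcripts, and no implied reads are given for these 3.

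Over the 6 aldehyde dehydrogenases the RPKM sum was 2332 in male liver and 2134 in female liver, a ratio of 1.09. Aldh1l1, with its short entry, supplied 32.2% of this sum in male and 35.1% in female liver. Over all 10 genes the RPKM sum was 3508 in male and 3668 in female liver, a ratio of 0.956. Without Adh1 the sums were 2736 RPKM in male and 2471 RPKM in female liver, a ratio of 1.11, so the direction of the total turned when Adh1 was left out.

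**Figure D3:**
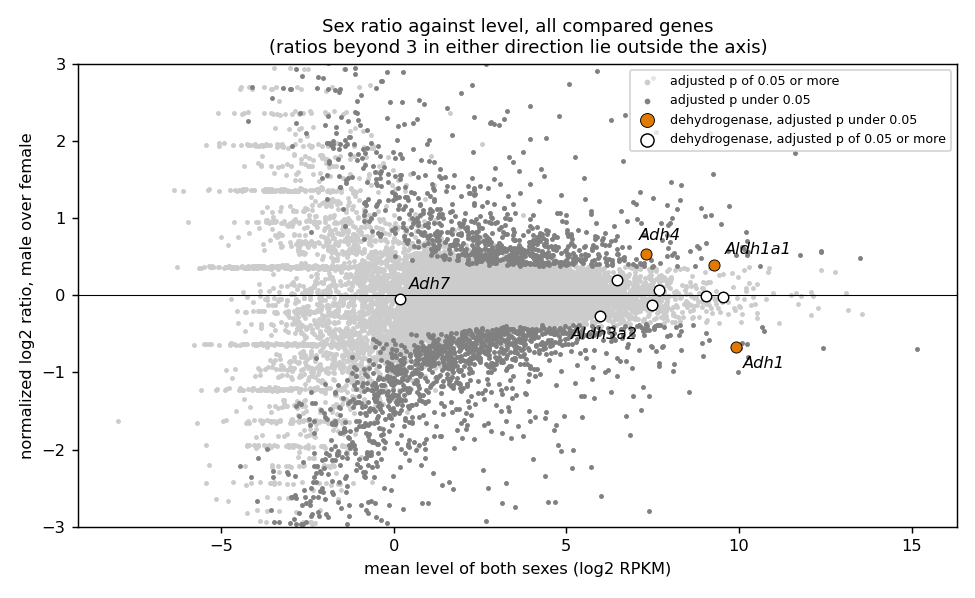
Normalized log2 ratio of the sexes, male over female, by the authors (vertical axis) against the mean log2 RPKM of both sexes (horizontal axis) for the compared genes with levels, in light grey (adjusted p of 0.05 or more) and dark grey (under 0.05). The 10 dehydrogenases are drawn as orange (called) or white (not called) circles. Adh4 (0.53) and Aldh1a1 (0.39) lie above and Adh1 (-0.67) below the band of genes that were not called.

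The rest of both enzyme families was set beside the 10 genes. Of 12 compared genes among 15 other aldehyde dehydrogenases, 1 was male-higher and 3 were female-higher, and 8 were not called, set beside 7.21% male-higher and 10.2% female-higher among all compared genes. Aldh1b1, the mitochondrial relative of Aldh2, had 49.0 RPKM in male liver and 98.3 RPKM in female liver, 1.99-fold higher in female liver with an adjusted p of 2.75e-07 in the authors' deposited table. Aldh1b1 and Aldh2 transcripts are 72.2% identical with a longest exact run of 20 bases. Aldh3b3, listed under its older symbol 1700055N04Rik, had no reads above the floor in male liver and was higher in female liver by at least 5.09-fold, set against 3 reads in all for male liver (adjusted p = 7.21e-05 in the authors' deposited table). Aldh1l2, the mitochondrial counterpart of Aldh1l1, was female-higher with an adjusted p of 0.0155 in the authors' deposited table, but its log2 RPKM of -5.08 in male and -2.47 in female liver lies at or near the floor, and no fold is given. The calls of Aldh3b3 and Aldh1l2 thus rest on their reads in female liver. Of the 3 female-higher genes, only Aldh1b1 lay well above the floor in both sexes. Aldh3b2 and Aldh1a3, at the floor in male liver with log2 RPKM of -1.98 and -3.06 in female liver, were set aside. The count of 3 therefore depends on the filter at the floor and is not a result about this list. Aldh3b1 was 2.36-fold higher in male liver at 1.38 RPKM, against 0.580 RPKM in female liver (adjusted p = 0.0309 in the authors' deposited table). The most abundant of this list, Aldh6a1 of valine breakdown, had 188 RPKM in male and 191 RPKM in female liver and was not called. Of 4 other alcohol-oxidizing enzymes, Adhfe1 and Akr1a4, an aldehyde reductase that was the more abundant with 186 RPKM in male and 155 RPKM in female liver, were compared and neither was called.

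Other genes of ethanol and acetate handling went both ways, with 2 male-higher and 1 female-higher gene of 5. Among all compared genes, 17.4% were called in either direction. Cat, which encodes catalase, had 1451 RPKM in male and 1009 RPKM in female liver and was 1.44-fold higher in male liver (adjusted p = 0.00506 in the authors' deposited table). Acss2, the cytosolic acetyl-CoA synthetase gene, was 1.36-fold higher in male liver (adjusted p = 0.0233 in the authors' deposited table). Acss3, a mitochondrial acyl-CoA synthetase gene, was 2.43-fold higher in female liver (adjusted p = 3.2e-09 in the authors' deposited table). Cyp2e1, the microsomal ethanol-oxidizing cytochrome and the most abundant of the list, had a normalized log2 ratio of 0.04 and was not called.

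Among genes of the kynurenine branch, in which Aldh8a1 acts, 5 of 8 compared genes were male-higher and none was female-higher, with a median log2 ratio of 0.44. The shares over all compared genes were 7.21% male-higher and 10.2% female-higher, and their median was -0.024. Tdo2, the tryptophan dioxygenase gene that opens the pathway, had 1516 RPKM in male and 946 RPKM in female liver (1.62-fold, adjusted p = 0.000184 in the authors' deposited table). Aadat, an aminotransferase gene, was 1.91-fold higher in male liver with an adjusted p of 1.87e-06 in the authors' deposited table. Kmo (1.42-fold) and Kynu (1.38-fold) were also male-higher in the authors' deposited table, as was Ido2. Acmsd, whose product makes the substrate of the Aldh8a1 enzyme, had a normalized log2 ratio of -0.15, and like Aldh8a1 it was not called. Whether the ratio of Aldh8a1 differs from those of the called genes was not tested.

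Of 16 compared genes of retinol and retinal handling, 4 were female-higher and none was male-higher, with a median log2 ratio of -0.11. Among all compared genes, 10.2% were female-higher and 7.21% male-higher. Rdh9, a retinol and steroid dehydrogenase gene (2.85-fold), Lrat, whose product esterifies retinol for storage (1.78-fold), and Cyp26b1, a retinoic acid hydroxylase gene (1.54-fold), were female-higher in the authors' deposited table, and so was Rdh5, another retinol dehydrogenase gene (1.53-fold). The most abundant of the list, Rbp4, the plasma retinol carrier gene, had a normalized log2 ratio of 0.14 and was not called. Lrat is also a marker of hepatic stellate cells, which store retinoids. Of 4 stellate cell markers Lrat and Col1a1 were female-higher and none was male-higher, and the RPKM sum of the 4 was 19.4 in male and 26.1 in female liver. Their part in the retinoid result was not tested.

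None of 16 genes around the formaldehyde and folate reactions of Adh5 and Aldh1l1 was called at an adjusted p under 0.05, as 17.4% of all compared genes were, and the median log2 ratio was -0.06. Its most abundant gene, Gnmt, a methyltransferase gene, had a normalized log2 ratio of -0.09. Of 7 compared partners of Aldh3a2 in fatty aldehyde and sphingolipid metabolism, Phyh, of peroxisomal alpha-oxidation and the most abundant, was 1.48-fold higher in male liver, and Hacl1, the lyase gene of the same route, was female-higher by 1.58-fold in the authors' deposited table. The other 5 were not called, so 2 of 7 were, beside the 17.4% of all compared genes.

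**Figure D4:**
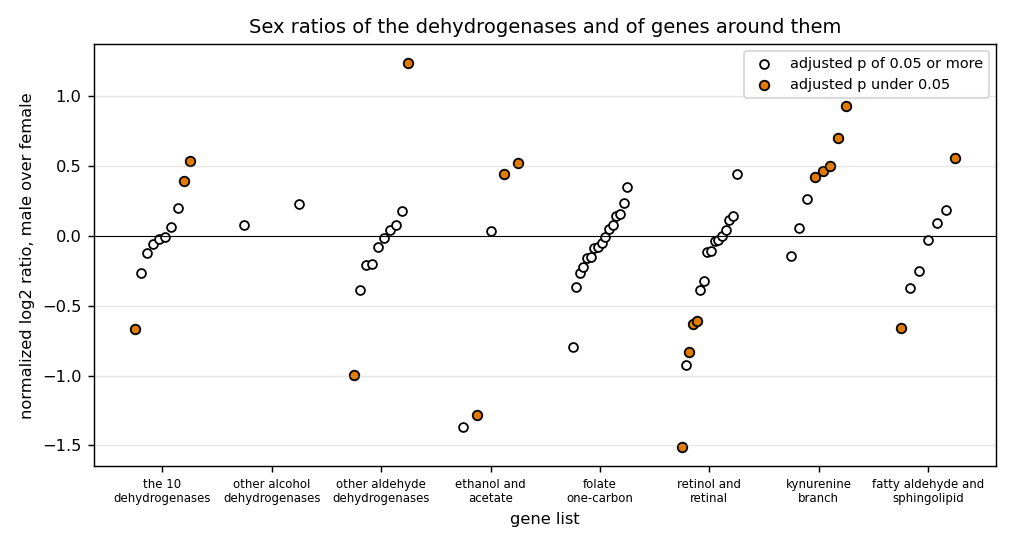
Normalized log2 ratio of the sexes, male over female, by the authors (vertical axis) for the 10 dehydrogenases and for the compared genes of 7 lists around them, in order of ratio within a list, orange where the adjusted p was under 0.05 and white otherwise. Aldh3b3 and Aldh1l2, which lie at or near the floor in male liver, are left out. Called genes lie above 0 in the kynurenine branch and below 0 in the retinol list, and the folate list has none.

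The 5 hepatocyte markers Alb, Apoa1, Ttr, Tat and Fgb ranged over log2 RPKM 9.125 to 14.825 in male liver and 9.306 to 15.518 in female liver. Apoa1 was male-higher by 1.49-fold and Alb female-higher by 1.62-fold in the authors' deposited table. Of 4 Kupffer cell markers 3 were female-higher, with an RPKM sum of 127 in male and 160 in female liver, and of 4 endothelial markers 1 was female-higher, with sums of 51.9 in male and 59.3 in female liver. The 4 cholangiocyte markers, of which Sox9 was female-higher, summed to 2.57 RPKM in male and 3.60 RPKM in female liver. Among hepatocyte zone markers, 2 of 3 pericentral genes, Oat and Lhpp, and 1 of 4 periportal genes, Gls2, were female-higher. These marker counts stand beside 10.2% female-higher and 7.21% male-higher among all compared genes. The part of these markers in the differences of Adh1, Adh4 and Aldh1a1 was not tested. Implied depth was 11241814 reads for male and 14719686 reads for female liver.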

How the data were processed

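Poly-A-enriched liver RNA of 2 male and 2 female pools of 6 CD-1 mice each was sequenced, and the submitters' processing notes name Bowtie, edgeR and the mm9 build, without versions or roles. Per the file headers, the authors deposited 1 log2 RPKM level per sex, a normalized log2 ratio of male over female, its linear ratio, a signed fold change (a score, negative for female-higher genes) and an adjusted p-value. The methods of normalization and adjustment, and the use of strand in counting, are not given in the sources used here. Pools hold different mice, but the table does not separate them. No gene was tested anew, and counts per pool were not analysed here, so the edgeR test planned in case of such counts was not run.

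Genes at the floor in both sexes (6590, each with a ratio of 1 and an adjusted p of 0.026), at the floor in 1 sex with a ratio of 1 (1460, a whole multiple of the floor within 0.3% in the other) and without a level (15) were set aside, leaving 13762. Depth was taken from the floor as 1 read, over the spans of 1058 olfactory receptor genes. Transcript lengths were looked up by accession in GENCODE vM21 (GRCm38, a different build) and matched the implied length within 2% for 74.2% of 4668 floor genes, so implied reads are approximate. Lengths were found for 7 of the 10 genes. Exact (Clopper-Pearson) 95% intervals cover counting error alone. They were tested on simulated data that held only counting error and known transcript lengths. That setting cannot show how they behave with spread between pools or inexact lengths. Start windows came from RefSeq tables (GRCm38.p6) for 9 of the 10 genes; those tables are used for sequences, older symbols and gene lengths, and mm9 coordinates are those of the deposited table with a 1-based start. Python 3.11.15, SciPy 1.17.1 and Biopython 1.88 were used (local alignments of transcripts). In place of proteins, transcripts were aligned.

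The 10 genes, the lists and the markers were chosen with earlier results of these data known. Named genes were the 10, up to 4 called genes per list by size of ratio and the most abundant gene of each list. Other named genes, among them Adh6-ps1, Ido2 and Acmsd, were chosen after their values were seen. Afmid and Glul were not matched, and 1 other gene of the lists is not reported here. Alternatives were the plain difference of log2 RPKM, re-centred or not, other thresholds, a filter on low levels and other sums.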

Additional observations from a re-analysis of the deposited data

How the results depend on the processing

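The directions of Adh1, Adh4 and Aldh1a1 held under the plain difference of log2 RPKM and under that difference re-centred on the median of genes that reach a log2 RPKM of 1 in each sex (a shift of 0.023). Among genes not called, the normalized log2 ratio of Aldh2 was -0.007, against 0.058 by the plain and 0.035 by the re-centred difference, and that of Aldh1l1 was -0.018, against 0.005 by the plain difference. The median over the 10 genes was -0.0125 and turned to 0.0315 by the plain difference. The log2 ratio of the RPKM sums was -0.06 and turned to 0.15 without Adh1, the most abundant gene. Of the 2 male-higher calls, 1 (Adh4) passed an adjusted p under 0.01 and 0 passed 0.05 with at least 1.5-fold, while Adh1 passed both. Calls among the 10 genes did not change when genes below a log2 RPKM of 1 in both sexes were left out, and the share of compared genes called was then 17.2%. With no entry set aside, an alternative chosen after seeing the data, 41.6% of all entries (9083) had an adjusted p under 0.05, and 6590 of these are the entries at the floor in both sexes. Each of these changes was seen on switching the measure, threshold or gene set as stated. What sets the normalized log2 ratio of a gene apart from its plain difference was not tested.

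Leaving out each pool was not run, because the table gives no value per pool. No paired analysis was possible because the columns carry no pool numbers. The spread between pools is missing for every gene. The counting intervals given for Adh1, Adh4, Adh5 and Aldh1a1 are narrow, Aldh8a1 and Aldh1l1 have none, and Adh7 has few reads as well. Which of these limits weighs most was not tested.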
